A study of Rattus norvegicus with 24 samples.

Results

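The microglia marker genes examined here were Tmem119, Aif1, Cx3cr1, P2ry12, Csf1r, Itgam, C1qa, C1qb, C1qc and Trem2, taken by gene name. They were chosen with earlier results of these data known. All probes carrying 1 of these 10 names were taken, which gave 14 probes. The array carried 36174 gene names in all. All 10 genes passed the filter on dim probes, as did 13 of the 14 probes and 20902 genes of the whole array. The tissue was left dorsal striatum of male Long Evans rats aged 80 to 90 days, measured as total RNA on 1-colour Cy3 expression arrays. Every rat received 1 intraperitoneal injection a day for 5 days, and tissue was taken 24 h after the last one. Saline rats received saline throughout. Acute rats received saline until the last day and then 1 injection of MDPV at 1 mg/kg. Chronic rats received 5 injections of MDPV at 1 mg/kg. MDPV (methylenedioxypyrovalerone) is a synthetic cathinone that blocks dopamine and noradrenaline uptake.

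Each group held 8 arrays, and the study states 6 per group. In each group 4 arrays shared a letter of their title with 1 other array. Such pairs were averaged, which gave 6 samples per group and 18 in all; the labels do not say whether a pair came from 1 rat. The values of all 24 arrays are given first below, and tests were run on the 18 samples.

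Microglia are the resident macrophages of the brain. They are maintained by signalling through the receptor CSF1R, sense neuronal signals through receptors such as CX3CR1 and P2RY12, and are the main source in the brain of C1q, the molecule that starts the classical complement cascade. Psychostimulants that act on dopamine terminals have often been studied for effects on microglia in the striatum. In RNA from bulk tissue, fewer microglia and less RNA per microglial cell cannot be told apart.

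Repeats within the probes recur in the results on covariation, so a few sequences are shown first. Each probe was a 60-base oligonucleotide. The Cx3cr1 probe with the higher signal (chr8:125033728-125033787 on the minus strand of rn4) ends in an uninterrupted run of 22 bases of alternating C and A. The Itgam probe with the higher signal (chr1:187385777-187385836, plus strand) begins with such a run of 11 bases. By contrast, the probes of C1qa (chr5:155662578-155662637, minus strand) and C1qc (chr5:155656638-155656697, minus strand) have no such run above 5 bases. The last 30 bases of the Cx3cr1 probe, the first 30 of the Itgam probe, and both C1q probes in full are given here, with the CA runs of the first pair in capitals.
Cx3cr1: aacagattCACACACACACACACACACACA
Itgam: CACACACACACggttttaaacaagtggtag
C1qa: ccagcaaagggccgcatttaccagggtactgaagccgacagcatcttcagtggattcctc
C1qc: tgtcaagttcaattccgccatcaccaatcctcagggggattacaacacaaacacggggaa

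Between 50.7% and 71.3% of spots were well above background on an array, and 0 spots were saturated. The number of arrays limits the precision. Each of the 10 genes was well above background on 24 of 24 arrays at its main probe. The dissections differed in their neighbouring tissue. The choroid plexus transcript Ttr ranged from -3.49 to 8.49 on the log2 scale, the cortical transcript Slc17a7 from -5.14 to -0.45, and the striatal transcript Ppp1r1b from 5.30 to 7.74. Saline replicate 4 had the lowest Ppp1r1b level of the 24 arrays. Values without it are given for Tmem119, Cx3cr1, C1qb, the medians of the list, the correlations of pairs that passed and P2ry13. Choroid plexus and cortex levels entered an alternative fit as covariates. Its estimates are given at the end where their sign turned, with the F test of 3 members. The part of tissue composition in the results was otherwise not tested.

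Levels are log2 processed signals minus the 75th percentile of the array, so a level of 0 equals that percentile. No probe's level is set against another's. No change with MDPV was detected for any of the 10 genes under limma with Benjamini-Hochberg adjustment. In each of the 3 comparisons 0 of 10 passed an adjusted p of 0.05, against a background of 0% of all genes. At an unadjusted p of 0.05 the counts were again 0 of 10, where 1.65% of all genes passed between acute and saline, 2.94% between chronic and saline and 2.49% between chronic and acute. In the F test over the 3 groups 0 of 10 members passed, beside 1.76% of all genes at an unadjusted p of 0.05. The smallest adjusted p of a member from limma was 0.999 for acute against saline, 1.00 for chronic against saline and 0.961 for chronic against acute. The samples of any pair of groups overlapped for all 10 members; groups that do not overlap were found for 0.0431%, 0.0526% and 0.201% of all genes in these comparisons, in the same order.

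**Figure D1:**
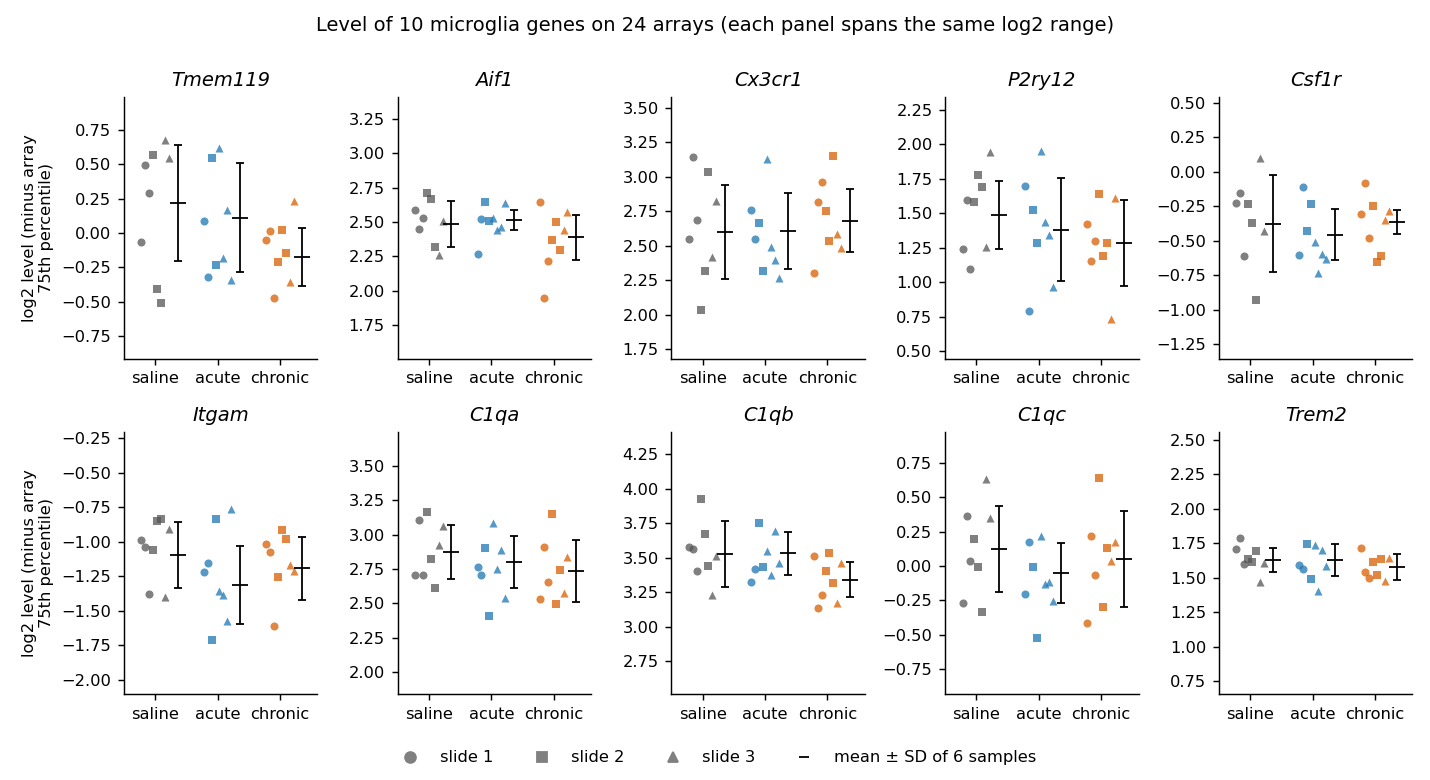
Log2 level (signal minus the 75th percentile of the array) of each of the 10 genes on 24 arrays, by treatment; marker shapes are the 3 slides, and the bar is the mean ± SD of 6 samples. All panels span the same log2 range, the points of the 3 groups overlap for each gene, and Trem2 shows the narrowest scatter (SD 0.10) while Tmem119 shows the widest (SD 0.38).

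Tmem119 encodes a membrane protein that is widely used to tell resident microglia from other macrophages. Its levels ran from -0.51 (median 0.39) to 0.67 on the saline arrays, from -0.34 (median -0.05) to 0.62 on the acute arrays and from -0.47 (median -0.10) to 0.23 on the chronic arrays. The saline and acute arrays were spread over most of the common range, while the chronic arrays lay mostly in its lower part. The sample means were 0.22 ± 0.42 for saline, 0.11 ± 0.40 for acute and -0.17 ± 0.21 for chronic (SD, n = 6 each). Chronic minus saline was -0.39 (SE 0.20, 95% interval -0.80 to 0.02), the largest estimate among the members, with an adjusted p of 1.00 from limma. As a ratio the estimate was 0.764, and the interval reached from 0.574 to 1.02. This value was 0.01 on slide 2 alone and -0.32 without saline replicate 4.

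P2ry12 encodes a purinergic receptor through which microglial processes respond to nucleotides released from injured cells. Its saline arrays ran from 1.099 (median 1.59) to 1.95, its acute arrays from 0.79 (median 1.39) to 1.95, and its chronic arrays from 0.74 (median 1.29) to 1.64. The highest and lowest arrays differed 2.32-fold, the widest ratio of the 10 genes, and they came from acute replicate 5 and chronic replicate 7. Chronic minus saline was -0.20 (SE 0.17, 95% interval -0.57 to 0.17). Acute minus saline was -0.10 (95% interval -0.47 to 0.26), so neither difference exceeded the spread between samples.

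Cx3cr1 encodes the receptor for the neuronal chemokine fractalkine. At the probe with the CA run the saline arrays ran from 2.03 (median 2.62) to 3.15, the acute arrays from 2.26 (median 2.52) to 3.13 and the chronic arrays from 2.30 (median 2.67) to 3.15. The 3 groups covered nearly the same range. Chronic minus saline was 0.08 (SE 0.16, 95% interval -0.25 to 0.42) and acute minus saline 0.01 (95% interval -0.32 to 0.34). Without saline replicate 4, the lowest array at this probe, these were -0.03 and -0.10. A second probe, farther toward the 3′ end (chr8:125031563-125031622, minus strand of rn4), ran from 2.03 (median 2.31) to 2.56 in saline, from 2.09 (median 2.35) to 2.44 in acute and from 1.84 (median 2.16) to 2.43 in chronic arrays. There the chronic samples were the lowest on average, at 2.17 ± 0.16 against 2.29 ± 0.20 in saline and 2.34 ± 0.08 in acute (SD, n = 6). Chronic minus saline at this probe was -0.12 (SE 0.10) and chronic minus acute -0.17 (SE 0.10), with adjusted p-values of 1.00 and 0.964 from limma on all kept probes. The sign of the Cx3cr1 difference after repeated MDPV therefore depended on the probe.

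Csf1r encodes the receptor for the growth factors CSF1 and IL-34. Its levels ran from -0.93 (median -0.30) to 0.10 in saline, from -0.74 (median -0.55) to -0.11 in acute and from -0.65 (median -0.33) to -0.08 in chronic arrays. The extremes of all 24 arrays were both saline, replicates 6 and 7. Chronic minus saline was 0.01 (SE 0.13, 95% interval -0.27 to 0.29), the estimate closest to 0 for that comparison. The second Csf1r probe was well above background on 0 of 24 arrays and has no usable level.

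Trem2 encodes a lipid-sensing receptor that signals through the adaptor Tyrobp. Its levels ran from 1.47 (median 1.63) to 1.79 in saline, from 1.41 (median 1.59) to 1.74 in acute and from 1.47 (median 1.58) to 1.71 in chronic arrays. The 3 ranges nearly coincided, and the highest array exceeded the lowest only 1.31-fold. The intervals were the narrowest of the list: acute minus saline was 0.00 (95% interval -0.15 to 0.15) and chronic minus saline -0.05 (95% interval -0.20 to 0.10). As ratios, chronic over saline lay between 0.871 and 1.07, so larger changes in either direction lie outside the 95% interval for this gene.

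Itgam encodes CD11b, the alpha chain of complement receptor 3. The saline arrays ran from -1.40 (median -1.01) to -0.83, the acute arrays from -1.72 (median -1.29) to -0.76 and the chronic arrays from -1.61 (median -1.12) to -0.91. Acute arrays were lower on average, yet the highest array of all was also acute. Acute minus saline was -0.22 (SE 0.14, 95% interval -0.52 to 0.08), the largest estimate of that comparison. The second Itgam probe, well above background on 22 of 24 arrays, gave -0.39 (SE 0.36). Aif1 encodes Iba1, the calcium-binding protein most often stained to show microglia. Its levels ran from 2.26 (median 2.52) to 2.71 in saline, from 2.27 (median 2.51) to 2.65 in acute and from 1.95 (median 2.40) to 2.64 in chronic arrays. Saline and acute arrays were centred alike and 1 chronic array, replicate 2, was the lowest of the 24. Chronic minus saline was -0.10 (SE 0.09) and chronic minus acute -0.13 (SE 0.09), both within 2 standard errors of 0.

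C1qa, C1qb and C1qc encode the A, B and C chains of C1q, and their probes lie within 15108 bases of each other on rat chromosome 5 (rn4). C1qa ran from 2.61 (median 2.88) to 3.17 in saline, from 2.41 (median 2.76) to 3.09 in acute and from 2.49 (median 2.70) to 3.15 in chronic arrays. C1qb ran from 3.23 (median 3.54) to 3.93 in saline, from 3.32 (median 3.45) to 3.75 in acute and from 3.14 (median 3.36) to 3.53 in chronic arrays. C1qc ran from -0.34 (median 0.11) to 0.63 in saline, from -0.52 (median -0.12) to 0.22 in acute and from -0.42 (median 0.08) to 0.64 in chronic arrays. The chronic arrays of C1qb sat low in the common range, whereas those of C1qc covered most of it. C1qb chronic minus saline was -0.19 (SE 0.11, 95% interval -0.41 to 0.04) and chronic minus acute was -0.19 (SE 0.11, 95% interval -0.42 to 0.03). Differences between the treatment groups held 21.0% of the C1qb variance over the 24 arrays, the largest share among the members, and slide held 15.0%. Such shares are positive even where groups differ only by sampling, and those of all genes were not set beside them. The limma F test of C1qb over the 3 groups gave an unadjusted p of 0.151 and an adjusted p of 0.996. The C1qb chronic minus saline difference was -0.11 without saline replicate 4, the array with the highest C1qb level. With all 24 arrays as separate samples it was -0.19 (SE 0.09), with an unadjusted p of 0.0429 and an adjusted p of 0.996 from limma. C1qa chronic minus saline was -0.14 (95% interval -0.39 to 0.11) and C1qc chronic minus saline -0.07 (95% interval -0.42 to 0.27).

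**Figure D2:**
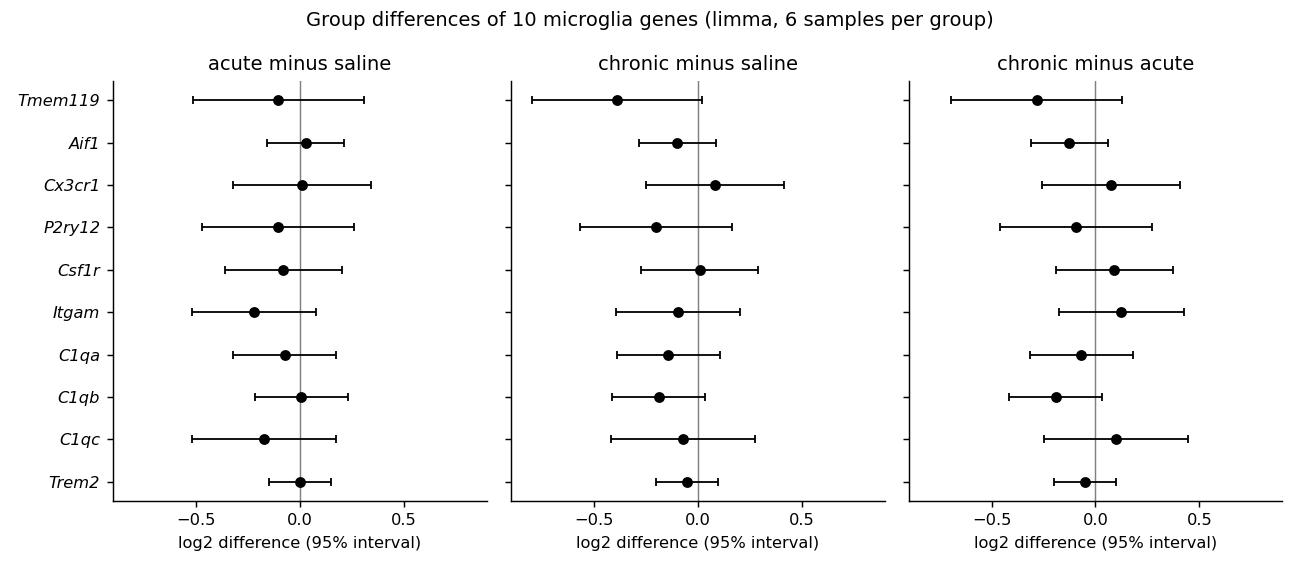
Log2 difference between groups for each of the 10 genes, with its 95% interval from limma on 6 samples per group; the vertical line marks 0. All 30 intervals include 0, and the Tmem119 estimate of -0.39 for chronic minus saline is the farthest from it.

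The list as a whole is described by its counts and medians, without a test. Between acute and saline 6 of 10 members were lower, beside 45.6% of all genes tested, with a median of -0.08 against 0.01 over all genes. Between chronic and saline 8 of 10 were lower, beside 49.9% of all genes, with a median of -0.10 against 0.00. Between chronic and acute 6 of 10 were lower, near the 53.1% of all genes, with a median of -0.06 against -0.01. Regardless of sign, the median size of a difference between chronic and saline was 0.10 for the members and 0.09 for all genes. A fit to 24 separate arrays counted both arrays of a letter pair. There the median was -0.13 for acute minus saline and -0.11 for chronic minus saline, beside 0.01 and -0.01 over all genes. In that fit 10 and 9 of the 10 members were lower, with Aif1 at -4.6e-05 for acute minus saline. The share of all genes lower in that fit was not computed. Without saline replicate 4 the medians of the members were -0.04 and -0.07. Both comparisons use the same saline samples.

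The spread among spots of an array could be measured for C1qa, C1qb and Trem2, which were each printed as 10 spots. The median SD among the spots of an array was 0.04 for C1qa, 0.04 for C1qb and 0.06 for Trem2, whereas their SDs over the 24 arrays were 0.22, 0.19 and 0.10. An array's value is the mean of its spots, and the median SE of that mean was 0.013 for C1qa, 0.014 for C1qb and 0.019 for Trem2. For each of these genes the array-to-array spread was thus several times that error. Over the 24 arrays Trem2 had a smaller SD than all but 1.85% of the genes tested, and Tmem119 stood at the 70.9th percentile. Trem2 was averaged over 10 spots and Tmem119 had 1 spot, so these ranks mix unequal averaging. Differences between the treatment groups held between 3.08% (Cx3cr1) and 21.0% (C1qb) of the variance of a member over the 24 arrays, without a test. Arrays that shared a title letter were not clearly closer than others of their group. Over all genes, limma estimated a correlation of -0.36 between the arrays of a pair, so in that fit paired arrays were less alike than others of a group. The arrays of each pair lay on different slides, while others of a group could share a slide. That fit held no term for slide, so the part of slide in this value was not tested. The SD within the 6 pairs was 0.06 for Trem2 against 0.10 among the arrays of a group, but 0.22 against 0.17 for Aif1 and 0.21 against 0.21 for C1qa.

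**Figure D3:**
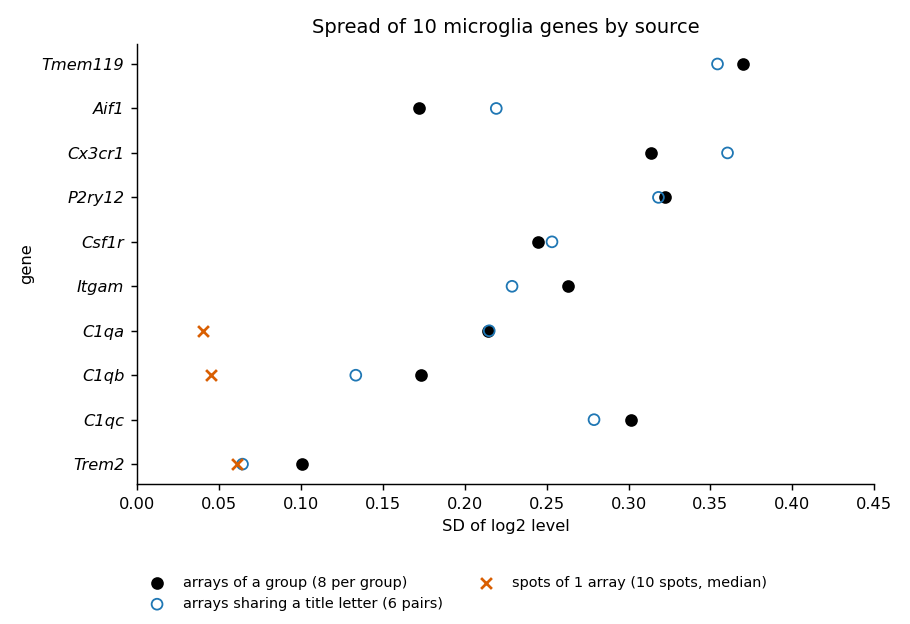
SD of the log2 level of each gene among the arrays of a group (filled), between arrays that share a title letter (open) and, for the 3 genes with 10 spots, among the spots of 1 array (crosses, median over arrays). Spots of C1qa and C1qb differ far less (0.04) than arrays do, and letter pairs differ about as much as the arrays of a group for C1qa (0.21).

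Some members varied together across the 18 samples. All 45 pairs were tested, with Pearson's r, Spearman's rho and 2-sided permutation p-values from 100000 permutations, adjusted over the 45 pairs. The median r was 0.10 (quartiles -0.08 and 0.41), beside 0.00 for all gene pairs (quartiles -0.25 and 0.25), and 28 of 45 pairs were above 0. Of these, 6 pairs passed an adjusted p of 0.05 and 11 an unadjusted p of 0.05. The permutation p-values compare a pair with shuffled samples, not with other gene pairs on these arrays. The share of all gene pairs past these thresholds was not computed. Whether the counts of passing pairs, here and below, exceed those of arbitrary genes was therefore not tested. These correlations are across samples of bulk tissue that share depth scaling and dissection.

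Aif1 and C1qb were the closest pair, with r = 0.755 and rho = 0.789 (adjusted permutation p = 0.00675). Without the 2 samples farthest from the Aif1 median r was 0.733, and within slides 1, 2 and 3 it was 0.895, 0.912 and 0.512 over 8 arrays each. This pair thus kept its sign on all 3 slides. C1qa and C1qc had r = 0.734 and rho = 0.792 (adjusted permutation p = 0.00885), 0.674 without the 2 farthest samples and 0.806, 0.897 and 0.639 within the slides. C1qb and Trem2 had r = 0.718 and rho = 0.822 (adjusted permutation p = 0.00885), 0.827 without the 2 farthest and 0.871, 0.320 and 0.812 within the slides. Leaving out saline replicate 4 gave 0.686, 0.762 and 0.844 for these 3 pairs, in the same order. Taking deviations from the group means gave 0.706, 0.759 and 0.701, so the covariation was present among samples of the same treatment.

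The other 3 pairs passed by less. P2ry12 and Trem2 had r = 0.656 and rho = 0.697 (adjusted permutation p = 0.0301), 0.626 without the 2 farthest samples and 0.448, 0.569 and 0.516 within the slides. Csf1r and C1qc had r = 0.660 and rho = 0.614 (adjusted permutation p = 0.0319), falling to 0.423 without the 2 samples farthest from the Csf1r median. The Csf1r relation thus leaned on those samples, and it lost its call without acute replicates 1 and 8, without saline replicate 6 and without saline replicate 7. Tmem119 and C1qa had r = 0.635 and rho = 0.666 (adjusted permutation p = 0.0389), 0.567 without the 2 farthest and 0.630, 0.456 and 0.932 within the slides. Without saline replicate 4 it was 0.573, with an adjusted permutation p of 0.106. The P2ry12 call was lost without acute replicate 5 and without chronic replicate 7. Without saline replicate 4, P2ry12 and Trem2 had r = 0.655 and Csf1r and C1qc 0.652. Over the 18 fits that each left out 1 sample, the 6 pairs lost a call 16 times in all, including the losses named here. Between 4 and 8 pairs passed in these fits.

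Among the 3 chains of C1q, 1 of 3 pairs passed. C1qb and C1qc had r = -0.07 (rho = 0.06, adjusted permutation p = 0.880) and were close to 0 or negative on each slide (-0.21, 0.11 and -0.32). C1qa lay between them, with r = 0.734 to C1qc and 0.554 to C1qb; the second value had an adjusted permutation p of 0.0822. Of all members, C1qa was closest to the mean of the other 9, with r = 0.78, which exceeded 99.99% of the genes tested. C1qb and P2ry12 each reached 0.59, Trem2 0.56, Tmem119 0.55, Aif1 0.38 and C1qc 0.29. Csf1r (0.07), Itgam (-0.16) and Cx3cr1 at its main probe (-0.20) were the lowest.

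**Figure D4:**
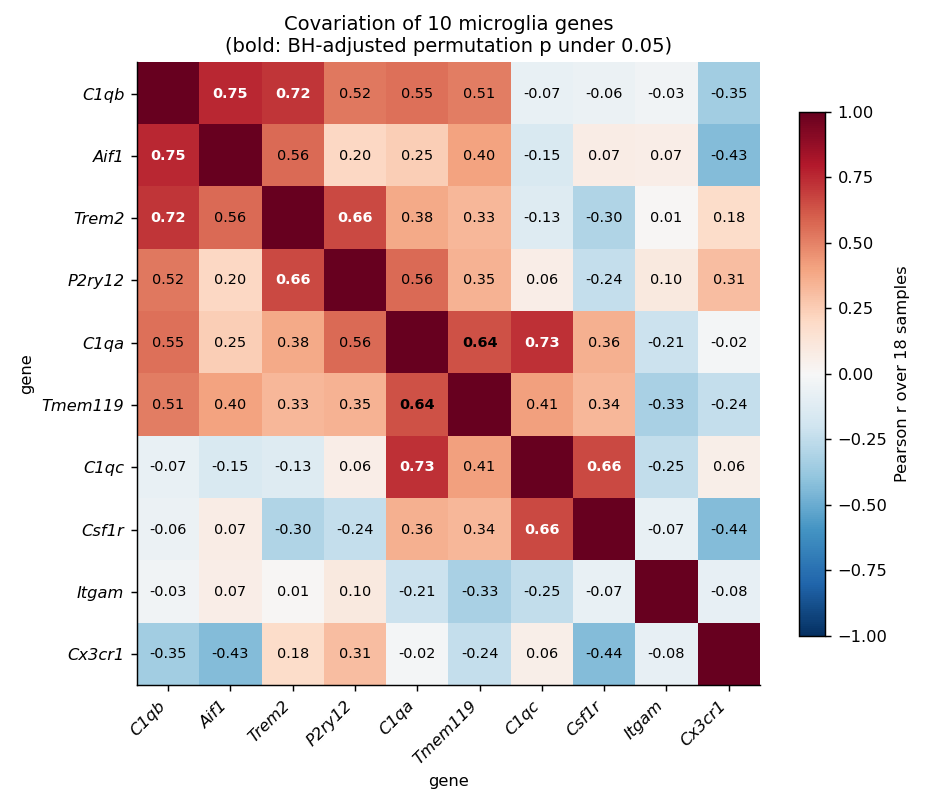
Pearson r over 18 samples for the 45 pairs of the 10 genes, from blue (-1) through white (0) to red (1); bold values passed a Benjamini-Hochberg adjusted permutation p of 0.05. The pairs of C1qb with Aif1 (0.75) and Trem2 (0.72) and the pair C1qa and C1qc (0.73) stand out, while no pair with Cx3cr1 or Itgam at their main probes passed; the highest of these was 0.31, for Cx3cr1 and P2ry12.

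Promoter sequences were available for 6 of the 10 genes in RefSeq (GRCr8). Those of C1qa and C1qb are shown because these neighbouring genes encode chains of 1 complex and had r = 0.554. The 6-base cores GGAAGT and GAGGAA, which resemble sites of PU.1, a transcription factor required for the macrophage lineage, were searched on both strands of the 250 bases before each transcript start. GGAAGT occurred in 19.2% of 33469 promoters, GAGGAA in 23.3% and at least 1 of them in 36.7%. The C1qa window (chr5:154419934-154420183, minus strand) held GGAAGT 2 times, 107 and 79 bases before the start. The C1qb window (chr5:154407828-154408077, minus strand) held 3 matches, at 247, 90 and 61 bases. Of the other matched genes, Csf1r, Itgam and Trem2 held at least 1 match and Cx3cr1 held 0. Capitals mark the matches, on either strand.
C1qa: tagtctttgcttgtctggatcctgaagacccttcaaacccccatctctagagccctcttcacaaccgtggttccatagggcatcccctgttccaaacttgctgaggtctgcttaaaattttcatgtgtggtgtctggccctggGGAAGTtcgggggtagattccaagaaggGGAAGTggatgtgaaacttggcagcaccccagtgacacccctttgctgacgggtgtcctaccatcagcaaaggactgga
C1qb: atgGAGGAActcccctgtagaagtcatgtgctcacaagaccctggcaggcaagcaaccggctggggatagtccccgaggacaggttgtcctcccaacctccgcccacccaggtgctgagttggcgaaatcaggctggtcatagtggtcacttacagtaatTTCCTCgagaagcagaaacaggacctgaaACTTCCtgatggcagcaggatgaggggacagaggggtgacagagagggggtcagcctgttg

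The 2 probes of Cx3cr1 did not rise and fall together. Over the 24 arrays their r was -0.41 (rho = -0.44), whereas the 2 probes of Aif1 had r = 0.50 and those of Itgam 0.67. Within slides 1, 2 and 3 the Cx3cr1 value was -0.59, -0.74 and 0.14. Without saline replicate 4 it was -0.31 over arrays, and over samples it went from -0.24 to 0.02. Saline replicate 4 was the lowest array at the CA-run probe (2.03) and the highest at the distal probe (2.56). The CA-run probe followed other probes that hold the same kind of run. Among the kept probes 30 (0.114%) hold a CA run of at least 16 bases, and they carry 29 gene names. The median r of the Cx3cr1 probe with the other 29 was 0.95 over 18 samples, all 29 were above 0, and its r with their mean was 0.97. Its median r with all other probes was 0.01. By run length, the median was 0.01 for probes with a run of at most 7 bases, 0.10 for 8 to 11 bases (102 probes), 0.53 for 12 to 15 bases (9 probes) and 0.95 for 16 or more. The distal Cx3cr1 probe, whose longest run is 3 bases, had a median r of -0.30 with the CA-run probes. The Itgam probe with the run of 11 bases had a median r of -0.04 with them. With the 43 probes that hold a run of at least 16 bases of alternating T and G, the median r was -0.20 for the CA-run Cx3cr1 probe, 0.40 for its distal probe and 0.24 for the Itgam probe, and for the last pair all 43 were above 0. These correlations describe probes on shared arrays and carry no test.

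At the distal probe, Cx3cr1 passed with 3 of the other 9 members. Its r was 0.769 with C1qb (rho = 0.713, adjusted permutation p = 0.00383), 0.659 with Trem2 (rho = 0.596, adjusted permutation p = 0.0228) and 0.629 with Aif1 (rho = 0.610, adjusted permutation p = 0.0268). Without the 2 samples farthest from its median these were 0.674, 0.513 and 0.627. Within slides 1, 2 and 3 the C1qb value was 0.630, 0.795 and 0.812, the Aif1 value 0.734, 0.748 and 0.758, and the Trem2 value 0.353, 0.082 and 0.766. The relations to C1qb and Aif1 were thus seen on all 3 slides, and that to Trem2 mainly on slide 3. Without saline replicate 4 the values were 0.694 for C1qb, 0.706 for Trem2 and 0.537 for Aif1. At the CA-run probe the same pairs had r = -0.35, 0.18 and -0.43. The other 6 members did not pass with the distal probe: r was 0.496 for P2ry12, 0.323 for C1qa, 0.282 for Itgam, 0.124 for Tmem119, -0.10 for Csf1r and -0.20 for C1qc. The distal probe correlated with the mean of the other 9 genes at 0.59, where the CA-run probe gave -0.20. With the distal probe in its place, 9 of the 45 pairs passed an adjusted p of 0.05 in place of 6, and the median r was 0.32 in place of 0.10. This use of the other probe was chosen after the values were seen.

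**Figure D5:**
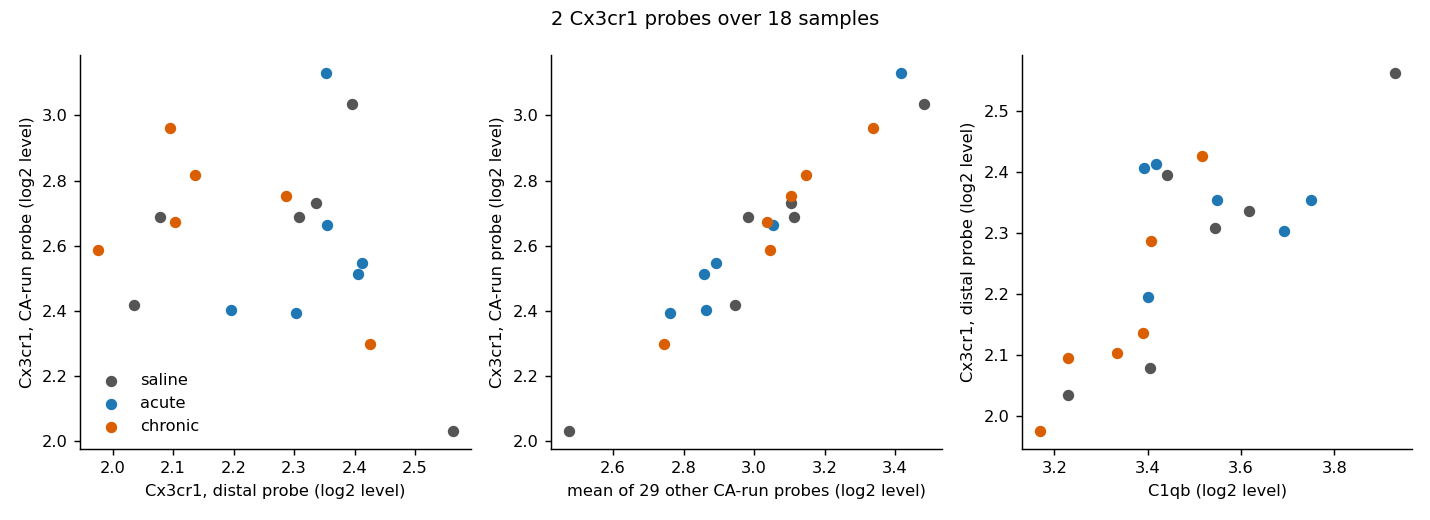
Log2 levels over 18 samples, coloured by treatment: the CA-run probe of Cx3cr1 against its distal probe (left), against the mean of the 29 other CA-run probes (middle, r = 0.97), and the distal probe against C1qb (right, r = 0.77). The left panel shows no positive relation between the probes of 1 gene, and the other panels show close ones.

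Other genes of microglia, from a list of 46 of which 35 were measured, were examined beside the members. None passed an adjusted p of 0.05 from limma in the 3 comparisons. Between chronic and saline 25 of 35 were lower, beside 49.9% of all genes, with a median of -0.06. At an unadjusted p of 0.05 from limma, 1 of 35 passed, near the 2.94% of all genes. It was Ly86, a partner of the receptor-like protein CD180, at -0.30 (SE 0.13). Between acute and saline 17 of 35 were lower, beside 45.6% of all genes, with a median of 0.01. P2ry13, a purinergic receptor gene of the same family as P2ry12, was at -0.20 (SE 0.10) for chronic minus saline. Of 25 measured activation genes, 0 passed an adjusted p from limma in any comparison; the median was -0.04 for acute minus saline and -0.13 for chronic minus saline. Among them Tspo, the target of imaging ligands for inflamed brain, was at -0.45 (SE 0.17) for chronic minus saline. At an unadjusted p of 0.05, 2 of the 25 passed for acute minus saline, beside the 1.65% of all genes: the cytokine gene Tnf at 0.47 (SE 0.19) and the lipopolysaccharide co-receptor gene Cd14 at -0.55 (SE 0.24). For chronic minus saline 2 of the 25 passed, beside 2.94%: Tspo and the chemokine gene Cxcl10 at -0.86 (SE 0.39), which was well above background on 7 of 24 arrays. Of the 17 measured ligands and partners, 0 passed an adjusted p of 0.05 from limma. The smallest unadjusted p-values in that list were those of Hcst, which encodes the adaptor DAP10, at 0.74 (SE 0.24) for acute minus saline and -0.90 (SE 0.24) for chronic minus acute; Hcst was well above background on 14 of 24 arrays. Cx3cl1, the ligand of CX3CR1, was at 0.10 for chronic minus saline, and Tyrobp, the adaptor of TREM2, at -0.13. The 24 other complement genes had medians of -0.14 (acute minus saline) and -0.02 (chronic minus saline), again with 0 past an adjusted p of 0.05.

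Markers of other cells moved as follows. Beyond the covariate fit given at the end, their part in the microglial values was not tested. Border macrophage and monocyte genes (10 measured) had medians of -0.28 for acute minus saline and -0.06 for chronic minus saline, and their mean level ran from -3.11 to -2.03 in saline, from -3.07 to -2.15 in acute and from -3.26 to -1.96 in chronic samples. In that list 8 of 18 genes on the array were below background on most arrays. Of 17 granulocyte and lymphocyte genes on the array 3 were measured, with medians of -0.20 and 0.01. The 4 measured erythroid genes had medians of -0.26 and -0.14. Choroid plexus genes (8 measured) were all lower than in saline in both comparisons, with medians of -0.999 and -1.42, while cortical genes (7 measured) had medians of 0.34 and 0.55 and striatal neuron genes (12 measured) 0.26 and 0.16. Astrocyte genes (10 measured) had medians of 0.01 and -0.11, oligodendrocyte genes (11 measured) -0.09 and -0.09, and endothelial and mural genes (13 measured) -0.01 and 0.00. None of these lists had a gene past an adjusted p of 0.05 from limma in any of the 3 comparisons.

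The genes most like the members were ranked by r over 18 samples with the mean of the standardised members. Cx3cr1 entered this mean at its CA-run probe, and neither the ranking nor the list medians were repeated with its distal probe. P2ry13 stood first among genes outside the list (1 member ranked above it), at 0.84, and was at 0.20, 0.93 and 0.93 within the slides. Without saline replicate 4 its r was 0.82. It was followed by Fam101b (0.78), Ptpn6 (0.72), Derl3 (0.71), Doc2g (0.70), Dcn (0.68), Tmem173 (0.68), Wfdc1 (0.68), Fcgr1a (0.67), Gngt2 (0.67), Mcee (0.67) and Tyrobp (0.67), leaving out 2 entries of that range without a gene symbol. Of these 12, P2ry13 and Fcgr1a were on the list of other microglia genes and Tyrobp on that of partners. The 35 other microglia genes had a median r of 0.31 with the members, and 28 were above 0; over all genes the median was 0.02. Activation genes had a median of 0.21, other complement genes 0.18, astrocyte genes 0.25 and choroid plexus genes 0.18. Cortical genes had a median of -0.49 and striatal neuron genes -0.26, so over all 18 samples the members tended to be low where these neuronal transcripts were high. Saline replicate 4, with the lowest Ppp1r1b level, had the highest Aif1, C1qa and C1qb levels of the 24 arrays. The medians of these lists were not computed without it.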

How the data were processed

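Total RNA from 24 striatum samples was labelled with Cy3 and read on 3 slides. Scanner intensity files were made by the authors with Agilent Feature Extraction 10.7, per the submitters' processing notes; the processed signal is background-subtracted, and probe coordinates are rn4, per the file headers. The authors' deposited log2 value table and the flags (other) marking spots above background were also read. Log2 processed signals were averaged over the spots of a probe, without outlier spots, and each array was scaled by subtracting the 75th percentile of its 45598 probes other than controls. Probes well above background on at least 50% of the arrays of a group were kept (26259), and the probe of highest mean stood for a gene (20902 genes). Arrays sharing a title letter were averaged, and limma 3.58.1 (R 4.3.3) was fitted to 18 samples of 3 groups with Benjamini-Hochberg adjustment over all genes. The labels do not tie arrays to rats, so p-values measure the spread between these samples, which may be partly technical. Named genes were the 10 members, at most 6 genes per list with the smallest unadjusted p, the 12 most alike genes, and Ttr, Slc17a7 and Ppp1r1b. Members and lists were chosen with earlier results of these data known. The fit and the correlation test were tested on simulated data. Alternatives were other normalizations, filters, probes, sample units, slides, weights and covariates.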

Additional observations from a re-analysis of the deposited data

Results flagged for a closer look

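In 1 of 60 groups examined (10 genes in 3 groups, over samples and over arrays), 1 value stood apart from the rest. Chance flags about 1 in 20 groups. Acute replicate 5 had a Cx3cr1 level of 3.13 at the CA-run probe, and the nearest other acute sample was at 2.66; the gap was 0.635 of the group's range, above Dixon's 95% critical value for 6 samples. The same sample was the highest of the 6 acute samples at 28 of the 29 other probes with a CA run of at least 16 bases. At the distal Cx3cr1 probe it ranked 4 of 6.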

How the results depend on the processing

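No gene was called in any comparison under any alternative run over all genes, nor without any 1 of the 18 samples, so no member gained or lost a call (limma, Benjamini-Hochberg). The median member difference stayed below 0 in all of these, except for 0.0053 between chronic and acute with the letter pair as a random block and 0.0037 without acute replicate 5. At an unadjusted p of 0.05 members passed under some of them: C1qb chronic minus saline between -0.19 and -0.20 in the fits to 24 arrays, on slide 3 alone acute minus saline of Csf1r (-0.45) and C1qc (-0.56), with array weights Aif1 and C1qb for chronic minus saline (-0.17 and -0.20) and chronic minus acute (-0.16 and -0.17), and Tmem119 chronic minus saline with 1 array per sample (-0.44) and without saline replicate 6 (-0.53). Without saline replicate 7 C1qb chronic minus saline (-0.25), and without saline replicate 4 C1qb chronic minus acute (-0.19), also passed. With array weights 2137 of 20902 genes passed for chronic minus saline and 4095 for chronic minus acute. The main fit had 615 and 520. On slide 3 alone 2212 passed for acute minus saline, against 345. For chronic minus saline 1842 passed without saline replicate 7, 1085 with 1 array per sample and 730 without saline replicate 6. This count was 514 with 24 separate arrays and 516 with slide as a block. Without saline replicate 4, 633 passed for chronic minus acute. With the letter pair as a random block, the correlation estimated within pairs was negative (-0.36). In that fit 1094 genes passed an unadjusted p of 0.05 from limma for chronic minus saline, against 615 in the main fit. The C1qb pass there stands beside this larger count. The sign of many small estimates turned; the cause was not tested. With quantile normalization, acute minus saline was -0.012 for Cx3cr1, -0.023 for C1qb, -0.014 for Trem2. With normexp background correction, acute minus saline was -0.022 for C1qb, -0.017 for Trem2, and chronic minus saline was -0.097 for Csf1r. In the authors' values, acute minus saline was -0.011 for Cx3cr1, -0.030 for C1qb, -0.0068 for Trem2. With the mean of a gene's probes, acute minus saline was -0.0062 for Aif1, and chronic minus saline was -0.016 for Cx3cr1, and chronic minus acute was -0.046 for Cx3cr1. At the gene's other probe, acute minus saline was -0.041 for Aif1, and chronic minus saline was -0.12 for Cx3cr1, 0.0098 for Itgam, and chronic minus acute was -0.17 for Cx3cr1. With 24 separate arrays, acute minus saline was -4.6e-05 for Aif1, -0.056 for Cx3cr1, -0.042 for C1qb, -0.039 for Trem2, and chronic minus saline was -0.020 for Csf1r. With the letter pair as a random block, acute minus saline was -0.019 for Aif1, -0.099 for Cx3cr1, -0.073 for C1qb, -0.065 for Trem2, and chronic minus saline was -0.041 for Csf1r, and chronic minus acute was 0.014 for C1qa. With 1 array per sample, acute minus saline was -0.0087 for Cx3cr1, 0.019 for P2ry12, -0.014 for Trem2, and chronic minus saline was -0.0035 for Csf1r. With slide as a block over 24 arrays, acute minus saline was -0.0047 for Aif1, -0.039 for Cx3cr1, -0.025 for C1qb, -0.028 for Trem2, and chronic minus saline was -0.020 for Csf1r, and chronic minus acute was 0.0012 for C1qa. On slide 1 alone, acute minus saline was -0.13 for Aif1, -0.14 for Cx3cr1, -0.15 for C1qb, -0.12 for Trem2, and chronic minus saline was -0.10 for Cx3cr1, and chronic minus acute was 0.049 for P2ry12, -0.049 for Itgam, -0.073 for C1qc, 0.0062 for Trem2. On slide 2 alone, acute minus saline was 0.27 for Tmem119, 0.18 for Csf1r, -0.090 for C1qb, -0.033 for Trem2, and chronic minus saline was 0.0058 for Tmem119, 0.21 for C1qc, and chronic minus acute was -0.17 for Csf1r, 0.14 for C1qa. On slide 3 alone, acute minus saline was -0.054 for Cx3cr1, and chronic minus saline was 0.12 for Aif1, -0.087 for Cx3cr1, -0.16 for Csf1r, 0.020 for Trem2, and chronic minus acute was -0.033 for Cx3cr1. With array weights, acute minus saline was -0.0095 for Aif1, -0.12 for Cx3cr1, -0.040 for C1qb, -0.044 for Trem2, and chronic minus saline was -0.0098 for Csf1r, 0.0017 for C1qc. With choroid plexus and cortex levels as covariates, acute minus saline was -0.079 for Cx3cr1, -0.017 for Trem2, and chronic minus saline was -0.073 for Cx3cr1, 0.017 for C1qc. In that fit the unadjusted p of the limma F test was 0.403 for Tmem119, against 0.151 in the main fit. It was 0.155 for C1qb, against 0.151, and 0.226 for P2ry12, against 0.533. Without 1 sample at a time, the sign also turned for acute minus saline of P2ry12 (-0.22 to 0.014), C1qb (-0.054 to 0.086), Trem2 (-0.029 to 0.039), Cx3cr1 (-0.10 to 0.097), Aif1 (-0.017 to 0.074), Csf1r (-0.19 to 0.016), for chronic minus saline of Csf1r (-0.099 to 0.11), C1qc (-0.19 to 0.029), Cx3cr1 (-0.030 to 0.17), for chronic minus acute of C1qc (-0.018 to 0.19), P2ry12 (-0.21 to 0.019). Of the covariation, 6 pairs passed; 3 passed with normexp background correction, and 0, 2 and 1 on slides 1, 2 and 3 alone, each with only 8 arrays. The median r of 0.10 became 0.27 on slide 1, 0.25 on slide 3 and 0.32 with the other Cx3cr1 probe, which was added after the data were seen. No paired analysis was possible because the replicate numbers follow the order of deposit and pair no samples across groups. With 6 samples a group and a median standard error of 0.14 over all genes, small changes of the widely spread members could not be detected.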
